A study of Homo sapiens with 20 samples.

Results

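Cells given a copper chelator for 24 h were compared with and without cisplatin. The cells were MDA-MB-231, an established human triple-negative breast cancer line of basal type. The comparison took the 3 arrays of cells given both drugs for 24 h (Cis/TM 24 h) and the 3 arrays of cells given ammonium tetrathiomolybdate alone for 24 h (TM 24 h), chosen by their labels, out of 20 arrays in the series. Cisplatin was used at 36 µM and TM at 10 µM, so both groups carried TM and differed by cisplatin. Each of 18417 genes was represented by 1 transcript cluster of the Human Gene 1.0 ST array, and all values are log2 levels after RMA, the authors' background correction, normalization and summary. The other arrays entered the fit for its estimate of spread, and 2 further comparisons of the same drug are given beside the main one: Cis 24 h against Control (3 and 3 arrays) and Cis/TM 12 h against TM 12 h (3 and 2 arrays). Neither of these shares an array with the main comparison. The control labels give no time. Replicates were wells treated in triplicate, and nothing says that they came from separate experiments, so p-values describe the spread between wells and arrays. In RNA from whole wells, a loss of cells of one state and a lower level per cell cannot be told apart.

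Cisplatin forms adducts and crosslinks on DNA. Such lesions block RNA polymerase as well as DNA polymerase, and a long gene offers the polymerase more lesions to meet before its end than a short one. Damage also activates p53 targets, cell cycle checkpoints and inflammatory genes. TM binds copper, the metal that reaches cuproenzymes through dedicated transporters and chaperones, and copper pumps of the ATP7 family also carry platinum.

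The labelled cell line was checked on the 6 arrays against its markers. Vimentin, CD44, EGFR, CAV1, AXL and LDHB lay between 8.07 and 12.3, and estrogen and progesterone receptors (ESR1, PGR) and CDH1 lay between 3.48 and 4.01. GATA3 and FOXA1, luminal factors listed as low, lay between 5.87 and 6.44, and EPCAM, also listed as low, reached 8.20 to 8.98. The 7 measured markers of blood, endothelial and liver cells lay between 2.88 and 4.83, none of them called. A level in that range may lie near background, and among the genes named below both group means of CD24 and IMMP2L lay there, as did the lower mean of several others, for example ZNF204P, FHIT and SLC25A21. CAV1 was the only marker called and fell by 0.72. Outside these 6, the 3 Control arrays spread less across genes than the Cis 24 h arrays. Their upper quartiles were 7.43 to 7.51 against 7.67 to 7.80, and their standard deviations 2.01 to 2.03 against 2.12 to 2.18. Comparisons with Control carry that difference, whose cause was not tested. Among the 6 arrays, TM 24 h A stood apart. It correlated with the other TM 24 h arrays across genes with r of 0.988 and 0.989, against 0.993 to 0.994 for the other pairs within these groups, and its median level was 5.91 against 5.77 and 5.79.

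A gene was called at an adjusted p under 0.05 (limma, Benjamini-Hochberg) with a fold change over 1.5. Adding cisplatin to TM raised 650 genes, 3.53% of those tested, and lowered 506 genes, 2.75%. The arrays of the groups did not overlap in 1148 of these 1156 genes, and in 29.3% of all genes tested. The rises and falls reached similar sizes, with 129 genes over 1 and 117 genes under -1 on the log2 scale, while the median difference over all genes was -0.03. Without TM 24 h A, the counts were 479 higher and 574 lower. Of the genes called with all arrays, 447 higher and 474 lower were then still called. The median standard error of a difference was 0.14.

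The genes that fell most were very long genes. All 15 of the largest falls, with differences from -2.47 to -1.75 on the log2 scale, spanned between 493 kb and 1227 kb, whereas the median span of all genes was 24.5 kb. They were DIAPH2, SCFD2, GPC6, NEGR1, LPP, PTPRM, KCNQ5, PTPRG, RBMS3, SUPT3H, GPHN, TENM1, ANK2, CACNA2D1 and SLC25A21. None of the 15 largest rises reached 100 kb, and their median span was 12.9 kb. Spans are from RefSeq genes on GRCh38.p14.

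DIAPH2, a formin that builds actin filaments (chrX:96684842-97604997), had levels of 5.54, 5.04 and 5.92 on the Cis/TM 24 h arrays and 7.81, 8.10 and 7.99 on the TM 24 h arrays, so its highest level with cisplatin lay far below its lowest level without. It fell by 2.47 (standard error 0.17, adjusted p = 8.3e-09 by limma). LPP, a focal adhesion protein gene (chr3:188153021-188890671), had levels of 5.75, 5.85 and 6.03 against 7.92, 7.92 and 8.16 and fell by 2.12 (standard error 0.10, adjusted p = 1.2e-10). GPHN, which encodes the scaffold gephyrin (chr14:66508147-67735355), lay at 6.34, 6.25 and 6.17 against 8.13, 8.13 and 8.31 and fell by 1.94. SCFD2, a member of the Sec1 family of vesicle trafficking proteins, lay at 6.20, 6.49 and 6.24 against 8.56, 8.73 and 8.86. Control means, which lay near the TM 24 h arrays, were 7.79 for DIAPH2, 7.64 for LPP, 8.29 for GPHN and 8.54 for SCFD2.

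**Figure D1:**
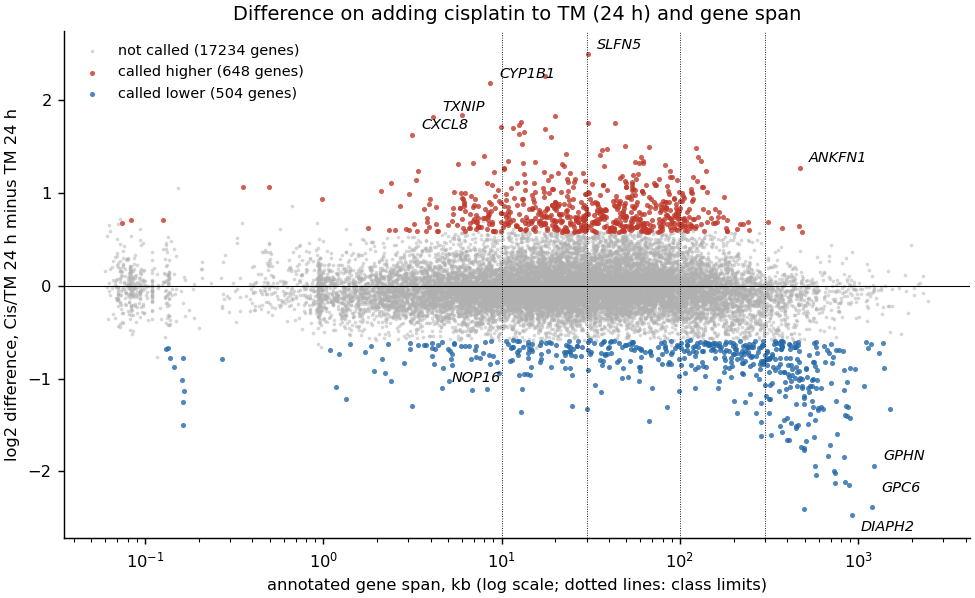
Each point is 1 gene, placed by its annotated span in kb (log axis) and its log2 difference between Cis/TM 24 h and TM 24 h (3 arrays each), with genes called higher in red and lower in blue. The lower edge of the cloud drops to the right, where DIAPH2, GPC6 and GPHN lie, and the largest rises, such as SLFN5 and CYP1B1, are short genes.

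The share of genes that fell rose with span. It was 1.22% of 5243 genes under 10 kb, 1.29% of 4974 genes from 10 to 30 kb, 1.57% of 5049 genes from 30 to 100 kb, 5.27% of 2391 genes from 100 to 300 kb and 23.5% of 729 genes over 300 kb. In that last class 171 genes fell and 5 rose, and the 171 made up 33.8% of all genes that fell. Many long genes are expressed in other tissues and sit near background here. Among the 225 genes over 300 kb whose mean level was at or above that of the median gene, 114 (50.7%) fell and 4 rose, with a median difference of -0.59, while among the 504 below it 57 fell. Across all genes there was nearly no rank relation between span and difference (Spearman's rho = -0.03 over 18386 genes, which are not independent replicates), since the classes below 100 kb hardly differed in their medians, from -0.05 to 0.00. The 5 genes over 300 kb that rose were chosen for mention after their values were seen. They were ANKFN1 (1.27), MAP2 (0.69), SYNE2 (0.65), FRMD4B (0.62) and OXR1 (0.59).

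Array by array, the median level of these 225 more highly expressed long genes was 7.11, 6.96 and 6.93 with both drugs and 7.59, 7.83 and 7.93 with TM. The lowest TM array was TM 24 h A, which still lay above all 3 Cis/TM arrays. Without it, 184 genes over 300 kb fell and 2 rose. The genes that lie at common fragile sites, regions that break under replication stress, are very long genes and overlap this class. Of the 33 measured, 16 fell and 0 rose, with a median of -0.35 beside -0.03 for all genes. All genes over 300 kb had a median of -0.17 with 23.5% lower. Those of them at or above the median gene in level had -0.59 with 50.7% lower. Among the fragile site genes that fell were FHIT (-1.32, a tumour suppressor), IMMP2L (-0.89), PTPRG (-2.02), DPYD (-1.39, which degrades pyrimidines) and FTO (-1.03, an RNA demethylase).

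The same classes were set beside 2 comparisons on other arrays. Under cisplatin without TM at 24 h, where 11.5% of genes were higher and 4.90% lower, 281 of the 729 genes over 300 kb were lower and 1 was higher. The difference with against without TM was called above zero in 112 of the 729 and below in 10, with a median of 0.23. Over all genes it was above zero in 5.08% and below in 11.4%, with a median of 0.003. Median centring of the arrays moved that median over all genes by 0.14. At 12 h on TM, where 6.61% were higher and 6.98% lower, 253 were lower and 1 was higher. The class from 100 to 300 kb differed more with time. Among those at or above the median gene in level, 681 of 1345 were lower at 12 h (50.6%) and 105 at 24 h (7.81%), with medians of -0.60 and -0.10. The difference itself was tested as the cisplatin difference on TM at 24 h minus that at 12 h, which called 986 genes above zero (5.35%) and 742 below (4.03%). Of the 2391 genes from 100 to 300 kb, 525 were above and 9 below, meaning a lower cisplatin difference at 12 h than at 24 h. Over 300 kb, 135 were above and 9 below. DOCK10, an exchange factor for small GTPases that spans 277 kb, fell by 2.67 at 12 h and stood at -0.57 at 24 h, where it was not called, and DIAPH3 (498 kb) fell by 2.55 at 12 h and stood at -0.57 at 24 h, also not called. TM 12 h had 2 arrays, and without its replicate A the test called 593 genes above and 427 below, and without its replicate B 696 and 410.

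**Figure D2:**
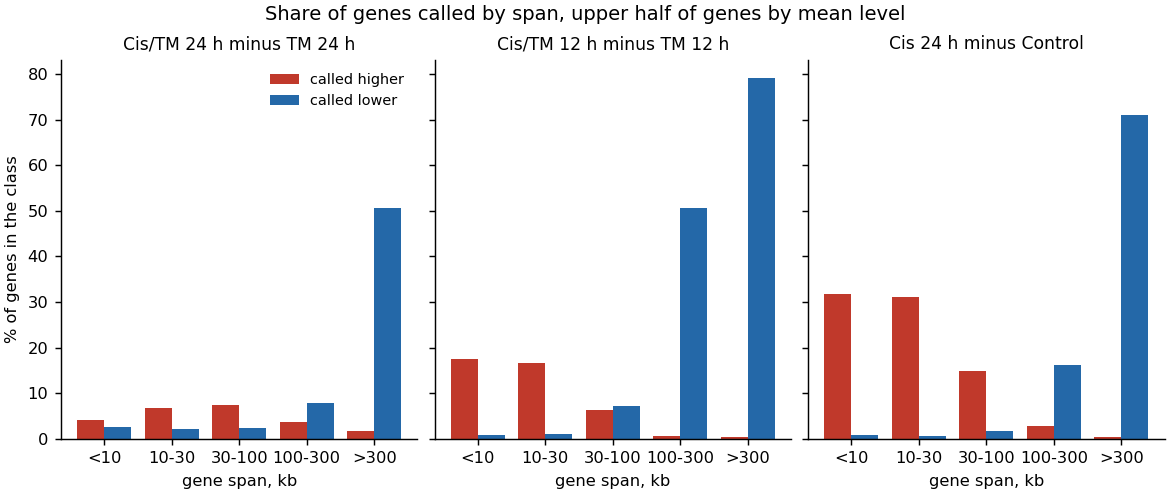
Bars give the percentage of genes called higher (red) and lower (blue) in each class of gene span, for genes whose mean level was at or above that of the median gene, in 3 comparisons of cells with and without cisplatin. At 24 h on TM the fall was concentrated over 300 kb (50.7%), while at 12 h on TM it was also seen from 100 to 300 kb (50.6%).

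Some long genes went the other way in time. TENM1, a teneurin of cell adhesion (chrX:124375903-125204312), lay at 5.97, 5.72 and 5.26 with both drugs at 24 h and at 7.37, 7.45 and 7.68 with TM, a fall of 1.85, whereas the 12 h difference was -0.05. PTPRM, a receptor tyrosine phosphatase, fell by 2.11 at 24 h and by 0.75 at 12 h. GPC6, a cell surface heparan sulfate proteoglycan, fell by 2.38 and 1.11. The difference between times was called below zero in all 3. They were picked from the 15 largest falls at 24 h, so this test shares its 24 h arrays with the choice. It therefore gives no independent support. Of the same 15, GPHN (1.09) and KCNQ5 (0.85) were called above zero.

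The largest rises formed a second group. SLFN5, a member of the schlafen family induced by type I interferon (chr17:35243072-35273655), was at 9.81, 9.81 and 9.70 with both drugs and 6.95, 7.34 and 7.53 with TM, and rose by 2.50 (standard error 0.11, adjusted p = 1.0e-10 by limma). Its means were 9.13 in Control and 9.81 in Cis 24 h, so TM 24 h was the group that stood low. CYP1B1, a cytochrome P450 that oxidizes estrogens and xenobiotics (chr2:38067509-38076151), lay at 8.90, 8.77 and 8.86 against 6.40, 6.58 and 7.0 and rose by 2.19 (standard error 0.14, adjusted p = 3.2e-09), with 8.81 in Control and 8.95 in Cis 24 h. TXNIP, which inhibits thioredoxin and glucose uptake (chr1:145992435-145996579), lay at 10.65, 10.60 and 10.65 against 8.93, 8.62 and 8.87 and rose by 1.83 (standard error 0.09), with 10.71 in Control. In CYP1B1 and TXNIP, the Control, Cis 24 h and Cis/TM 24 h groups lay close together and apart from TM 24 h.

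CCNG2, an unconventional cyclin of quiescent cells, rose by 1.77, with levels of 8.57, 8.49 and 8.47 against 6.84, 6.59 and 6.79 and a Control mean of 8.03. ZNF204P (2.27), CEP19 (1.84, a ciliary protein), GBP2 (1.83, an interferon-induced GTPase), MCOLN3 (1.75, an endolysosomal cation channel), SLC30A4 (1.75, a zinc transporter), NIPSNAP3A (1.74), ZNF404 (1.71), ACBD7 (1.66) and RNFT1 (1.64) also rose. TXNIP has a close relative in ARRDC4, and of the 10 measured genes of the TXNIP and arrestin-domain list 3 rose (TXNIP, ARRDC4 by 1.32 and KLF10 by 0.70) and 0 fell. The median of that list was 0.00. ARRDC3 stood at 0.51 (adjusted p = 0.0028 by limma) with no overlap between arrays, and was not called because of the fold minimum.

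Another pattern of levels was seen in CA2, a carbonic anhydrase, CTSV, a lysosomal protease, and CXCL8, the chemokine interleukin-8. CXCL8 lay at 7.95, 7.63 and 7.70 with both drugs and at 6.06, 6.17 and 6.14 with TM, beside means of 5.86 in Control and 8.37 in Cis 24 h, so that it was high in both cisplatin groups. It rose by 1.63 (standard error 0.15). CA2 rose by 1.70, from a mean near that of Control (5.51), and CTSV by 1.71. BCL2A1, an anti-apoptotic BCL2 relative, rose by 1.26, while BCL2L1, which encodes BCL-XL, fell by 0.91. They were the only 2 of 20 measured BCL2 family genes called.

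**Figure D3:**
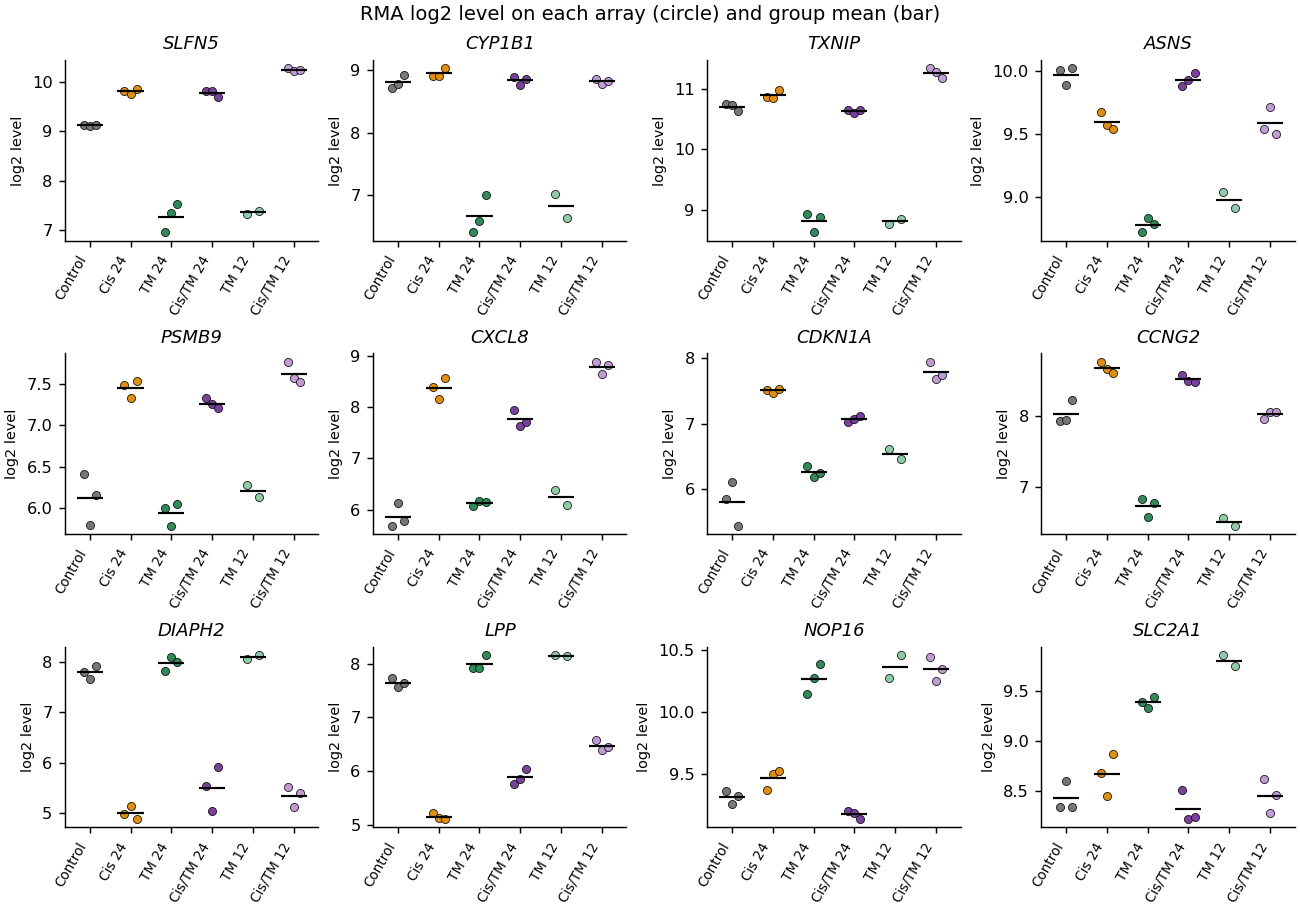
Circles are RMA log2 levels on single arrays and bars are group means, for 12 genes in 6 groups (3 arrays each, 2 in TM 12 h), each panel with its own axis. SLFN5, CYP1B1 and TXNIP are low in the TM groups only, CXCL8 and PSMB9 are high in the cisplatin groups, and DIAPH2 and LPP are low in them.

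Of the 33 measured p53 target genes 7 rose and 1 fell, that is 21.2% higher beside 3.53% of all genes, with a median of 0.15. MDA-MB-231 carries mutant p53. CDKN1A, the CDK inhibitor p21, lay at 7.02, 7.07 and 7.12 against 6.36, 6.19 and 6.24 and rose by 0.81 (standard error 0.14). TP53INP1 rose by 1.12, RPS27L by 0.97, FAS (a death receptor) by 0.94, CCNG1 by 0.89, RRM2B (a ribonucleotide reductase subunit) by 0.80 and TP53I3 by 0.64. ASCC3, a helicase, fell by 0.59. MDM2, whose product degrades p53, was at -0.01, and BAX and BBC3, the pro-apoptotic targets, were at -0.19 and 0.10, none of them called. CDKN1A had a larger cisplatin difference without TM, 1.70, and the difference between the 2 was called (-0.89).

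Of 49 DNA replication genes 3 rose (RFC4 by 0.78, ASF1B by 0.68 and PRIM1 by 0.61) and 0 fell, beside 3.53% and 2.75% of all genes. With cisplatin alone against Control, 36 were higher, where 11.5% of all genes were. The test of cisplatin with TM against without TM called 936 genes above zero (5.08%) and 2104 below (11.4%), and 26 of the 49 replication genes were below. That split depends on scaling. After median centring of the arrays, which moved the median of this difference by 0.14, it was 1799 above and 1450 below. Of the 49 replication genes 23 were then still below, and 20 after quantile normalization or after removal of the trend with level. In homologous recombination and crosslink repair, BRCA1 rose by 0.75 and EME1 by 0.61, and RAD51B, which spans 863 kb, fell by 1.04 among 37 measured. Of 31 genes of G1/S control 3 rose (9.68%) and 4 fell (12.9%). CCNE2, a cyclin of S phase entry, rose by 0.80, TIMELESS by 0.69 and E2F8 by 0.68, while CDK6 fell by 1.25, CCND1 (cyclin D1) by 0.95, MYC by 0.78 and CDC25A by 0.59. CCND1 lay at 8.89, 8.72 and 8.41 against 9.61, 9.54 and 9.73. Among 59 genes of mitosis, HMMR rose by 0.94, SPC25 by 0.87 and CDC25C by 0.70, and CDC20 and PLK1, both needed for mitotic progression, fell by 0.68 and 0.66.

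Interferon-stimulated genes encode antiviral and antigen processing proteins. Of 43 measured, 12 rose (27.9%) and 0 fell, beside 3.53% and 2.75% of all genes, with a list median of 0.23. PSMB9, a subunit of the immunoproteasome, lay at 7.33, 7.25 and 7.20 against 6.00, 5.78 and 6.05 and rose by 1.32 (standard error 0.13, adjusted p = 1.6e-06 by limma). PARP9 rose by 1.09, PARP14 by 1.06, SAMD9L by 1.01, IFIH1 (a sensor of double-stranded RNA) by 0.96, TAP1 (the peptide transporter of antigen presentation) by 0.91, IFI6 by 0.88, DDX60 by 0.80, IFI44L by 0.74, OAS1 by 0.71, IFIT2 by 0.69 and HERC6 by 0.61. Without TM 24 h A, 10 rose. Over all genes, the difference with against without TM was called above zero in 5.08% and below in 11.4%. In this list it was above in 2 members and below in 6, such as PSMB8 (-1.22) and IRF1 (-1.12), or in 4 and 4 after median centring. The 2 above were DDX60 and SAMD9L, which stood at -0.32 and -0.48 under cisplatin without TM, with differences of 1.12 and 1.49. Cisplatin without TM raised 13 members, where 11.5% of all genes were higher, and cisplatin at 12 h on TM raised 10, where 6.61% were. The median level of the 43 genes was 6.77, 6.64 and 6.40 on the Cis/TM 24 h arrays and 6.05, 5.97 and 6.13 on the TM 24 h arrays, without overlap.

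The promoters of the 5 rises in this list with the smallest p were examined in RefSeq (GRCh38.p14, 250 bases before the gene start of the promoter table, read in the direction of the gene). The letters GAAANNGAA, the core of the interferon response element, were searched on both strands. They were found in 3 of the 5, and these are shown with PSMB9, whose window overlaps that of TAP1 because the genes are transcribed away from each other. Capitals mark the matches, which overlap in TAP1.
TAP1, chr6:32853705-32853954, minus strand: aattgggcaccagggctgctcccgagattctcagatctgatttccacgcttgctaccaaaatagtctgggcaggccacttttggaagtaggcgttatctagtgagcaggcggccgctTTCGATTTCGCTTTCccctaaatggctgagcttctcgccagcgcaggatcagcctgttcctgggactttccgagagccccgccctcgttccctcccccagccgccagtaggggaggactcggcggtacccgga
PSMB9, chr6:32853942-32854191, plus strand: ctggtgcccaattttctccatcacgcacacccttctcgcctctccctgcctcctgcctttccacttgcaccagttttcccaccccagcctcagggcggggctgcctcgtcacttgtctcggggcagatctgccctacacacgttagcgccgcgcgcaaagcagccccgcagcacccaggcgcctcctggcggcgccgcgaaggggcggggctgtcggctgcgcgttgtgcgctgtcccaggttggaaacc
IFI6, chr1:27672193-27672442, minus strand: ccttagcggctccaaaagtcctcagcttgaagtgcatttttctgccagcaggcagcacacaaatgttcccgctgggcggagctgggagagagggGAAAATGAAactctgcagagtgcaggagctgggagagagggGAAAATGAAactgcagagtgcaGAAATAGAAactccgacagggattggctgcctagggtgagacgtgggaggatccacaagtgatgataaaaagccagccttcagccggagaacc
PARP14, chr3:122680589-122680838, plus strand: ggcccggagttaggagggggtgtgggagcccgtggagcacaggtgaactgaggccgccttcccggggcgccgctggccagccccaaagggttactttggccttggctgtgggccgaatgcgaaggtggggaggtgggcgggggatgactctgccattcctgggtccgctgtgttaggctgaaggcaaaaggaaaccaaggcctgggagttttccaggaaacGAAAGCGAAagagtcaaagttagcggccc
The matches began 156, 115 and 93 bases before the start in IFI6, 133 and 127 in TAP1 and 29 in PARP14. The letters occurred in 22 of 35 measured list members with a promoter, in 6 of the 11 that rose and in 5.85% of all 14237 promoters.

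The integrated stress response raises amino acid synthesis and transport through ATF4. Of its 39 measured genes 9 rose (23.1%) and 0 fell, beside 3.53% and 2.75% of all genes, with a list median of 0.29. ASNS, asparagine synthetase, lay at 9.88, 9.92 and 9.98 against 8.72, 8.83 and 8.79 and rose by 1.15 (standard error 0.09, adjusted p = 5.8e-08 by limma). CTH, which makes cysteine, rose by 1.22, DDIT4 (an inhibitor of mTORC1) by 1.03, PCK2 by 0.90, DDIT3 (the factor CHOP) by 0.89, ATF3 by 0.86, VLDLR by 0.75, PSPH (of serine synthesis) by 0.62 and CHAC1 (which degrades glutathione) by 0.60. The median level of the 39 genes was 8.65, 8.32 and 8.36 on the Cis/TM 24 h arrays and 8.36, 8.27 and 8.31 on the TM 24 h arrays, which overlap. Without TM 24 h A, 8 members rose. ATF4 itself was at -0.18 and TRIB3 at 0.27, neither called. Control means of ASNS and CTH were 9.97 and 7.75, close to their levels with both drugs, and under cisplatin without TM they stood at -0.38 and -0.34. The difference with against without TM was called above zero in 12 members and below in 5, or in 14 and 3 after median centring. Over all genes it was above zero in 5.08% and below in 11.4%. The letters TGATGNAA, as in the amino acid response element, occurred in 2.19% of all promoters, in 5 of 33 list members with a promoter and in 3 of 8 that rose. ASNS and ATF3 are shown, with the match in capitals, as the 2 that held it among the 5 rises with the smallest p.
ASNS, chr7:97872409-97872658, minus strand: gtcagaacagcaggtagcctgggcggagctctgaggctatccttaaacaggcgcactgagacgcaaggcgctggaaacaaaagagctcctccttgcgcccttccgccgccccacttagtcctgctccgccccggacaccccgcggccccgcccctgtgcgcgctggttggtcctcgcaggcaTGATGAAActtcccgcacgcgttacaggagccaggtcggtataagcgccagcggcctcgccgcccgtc
ATF3, chr1:212565157-212565406, plus strand: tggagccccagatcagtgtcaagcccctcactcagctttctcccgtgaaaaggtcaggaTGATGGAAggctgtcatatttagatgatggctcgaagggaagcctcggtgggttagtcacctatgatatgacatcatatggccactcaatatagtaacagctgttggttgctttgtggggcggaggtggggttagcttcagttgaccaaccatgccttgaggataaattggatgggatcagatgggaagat
The match began 68 bases before the start in ASNS, whose listed start lies inside its annotated span, and 191 in ATF3.

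Redox genes moved in both directions. Of 55 measured genes of NRF2, glutathione and thioredoxin, 10 rose and 2 fell, where 3.53% of all genes were higher and 2.75% lower. The aldo-keto reductases AKR1C3 and AKR1C1 rose by 1.32 and 0.90, GLRX (glutaredoxin) by 1.09, GSTA4 by 1.02, GPX8 by 0.94 and IDH1 by 0.76. GPX1, the main cytosolic glutathione peroxidase, fell by 1.08, with levels of 6.47, 6.20 and 6.05 against 7.21, 7.26 and 7.51, and TKT, of the pentose phosphate pathway, fell by 0.73. The usual NRF2 targets NQO1 (0.29), GCLM (0.32) and HMOX1 (0.28) were not called. CYP1A1, an aryl hydrocarbon receptor target like CYP1B1, rose by 0.95. Of 51 lysosomal genes 4 rose, led by FUCA1 (1.16), and 0 fell, beside the same shares of all genes.

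**Figure D4:**
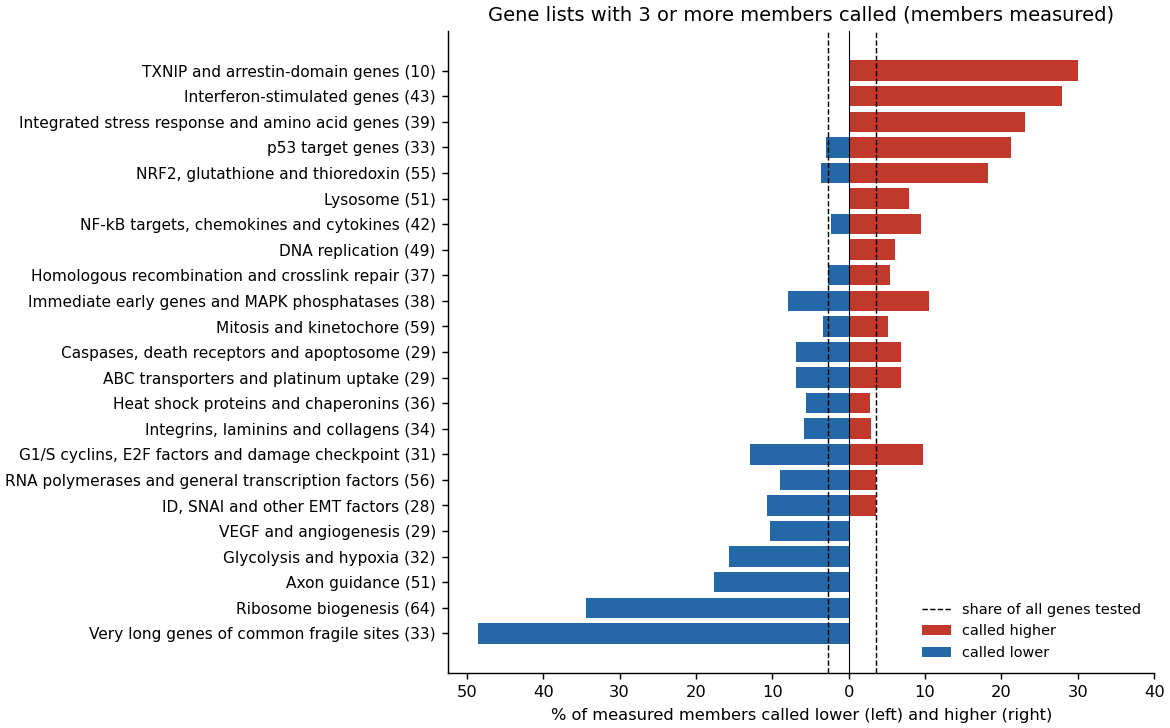
Bars give the percentage of measured members (number in parentheses) called higher to the right and lower to the left between Cis/TM 24 h and TM 24 h, for lists with at least 3 members called, and dashed lines give the shares of all genes (3.53% and 2.75%). Fragile site genes and ribosome biogenesis lie farthest to the left.

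Ribosome biogenesis, the making of ribosomal RNA and its assembly in the nucleolus, was lower. Of 64 measured genes 22 fell (34.4%) and 0 rose, beside 2.75% and 3.53% of all genes. In 61 of the 64 the difference was below zero, with a list median of -0.48. Without TM 24 h A, 27 fell and 0 rose. NOP16, a nucleolar protein of the large subunit (chr5:176383946-176388598), lay at 9.20, 9.19 and 9.13 against 10.14, 10.28 and 10.39 and fell by 1.10 (standard error 0.10, adjusted p = 2.6e-07 by limma). NOB1, the nuclease that matures 18S RNA, lay at 7.97, 7.67 and 7.73 against 8.82, 8.93 and 8.97 and fell by 1.11. MRTO4 fell by 1.11, IMP4 by 1.02, DDX10 by 1.0, NOL6 by 0.96, UTP20 by 0.94, PES1 by 0.90, BYSL by 0.88 and NOP2 by 0.80. The letters CACGTG, the E-box bound by MYC, were found in 8 of 56 promoters of the list, in 3 of 21 of the members that fell and in 7.86% of all promoters. NOP16 spans 4.65 kb, NOB1 13.1 kb and DDX10 276 kb. Array by array, the median level of the 64 genes was 8.87, 8.87 and 8.91 with both drugs, 9.27, 9.25 and 9.36 with TM and 8.86, 8.75 and 8.94 in Control.

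The list behaved differently at the earlier time and without TM. At 12 h on TM, 6 members were lower and 1 higher, with a median of -0.14. Over all genes 6.98% were lower and 6.61% higher there. The difference between times was called below zero in 17 members and above in 2, or in 11 and 2 after median centring. Over all genes that difference was below zero in 4.03% and above in 5.35%. NOP16 was at -0.02 and NOB1 at 0.02 at 12 h. Under cisplatin without TM, 17 members were higher and 2 lower, where 11.5% of all genes were higher and 4.90% lower. Of genes at or above the median gene in level, 31.8% under 10 kb and 31.1% from 10 to 30 kb were higher there. The difference with against without TM was called below zero in 31 members and above in 0, or in 25 and 0 after median centring. Over all genes it was below zero in 11.4% and above in 5.08%. NOB1, for example, stood at 1.08 without TM. DDX10 and UTP20, which spans 106.5 kb, fell in all 3 comparisons , at -1.16 and -0.71 without TM and -1.69 and -1.34 at 12 h.

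**Figure D5:**
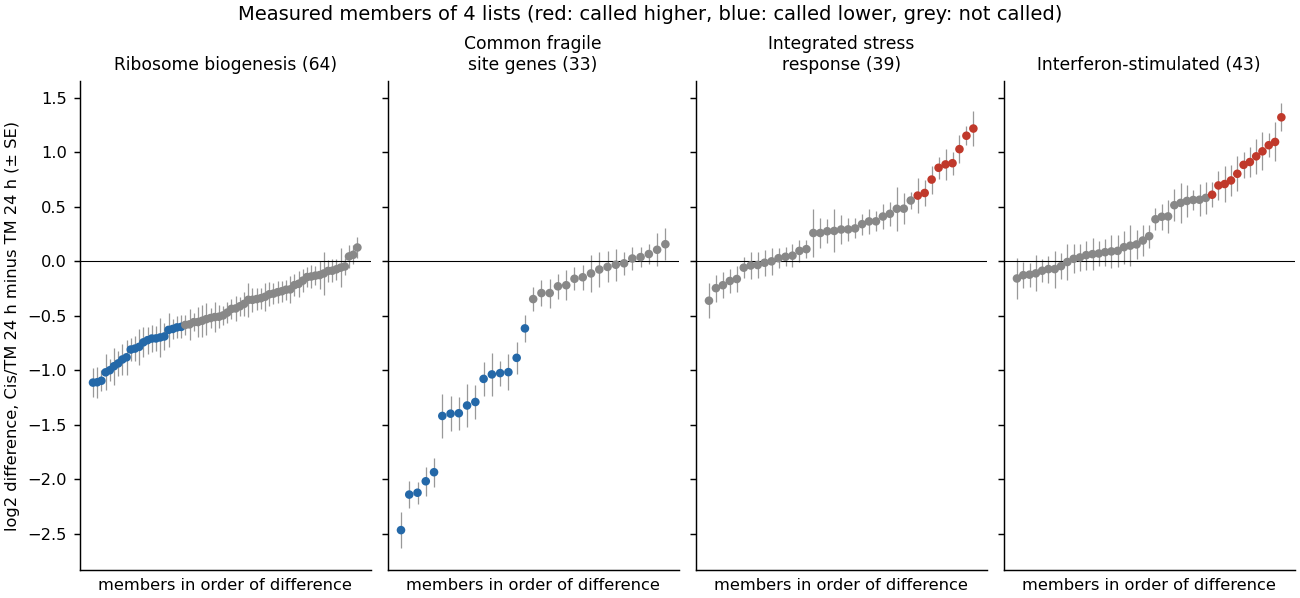
Each point is 1 measured member of a list, in order of its log2 difference between Cis/TM 24 h and TM 24 h, with bars of 1 standard error. Nearly all ribosome biogenesis genes lie below 0, fragile site genes split into a falling and an unmoved part, and the other 2 lists reach above 1.

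RNA polymerase I transcribes the ribosomal RNA genes. Of 8 measured subunits, picked from the polymerase list after their values were seen, 3 fell, 0 rose and all 8 had a difference below zero. POLR1A, the largest subunit, lay at 7.78, 7.75 and 7.67 against 8.52, 8.53 and 8.66 and fell by 0.84, and POLR1B and POLR1G fell by 0.73 and 0.75. Of polymerase III, POLR3E and POLR3G fell by 0.60 and POLR3GL, the paralog of POLR3G, rose by 0.83. In all, 5 of 56 measured genes of polymerases and general factors fell and 2 rose, or 3 and 2 after median centring. Over all genes 2.75% fell and 3.53% rose. Of 32 genes of glycolysis and hypoxia 5 fell and 0 rose, beside the same shares of all genes. SLC2A1, the glucose transporter GLUT1, lay at 8.51, 8.21 and 8.23 against 9.39, 9.33 and 9.44 and fell by 1.07, and HK2, hexokinase 2, fell by 1.02. CA12 fell by 0.77, PDK1 by 0.66 and PFKM by 0.60. SLC2A1 and HK2 were also lower at 12 h on TM, by 1.36 and 1.37.

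Of 20 measured genes of copper transport 2 fell (10%) and 0 rose, beside 2.75% and 3.53% of all genes. After median centring 1 of the 20 fell. ATP7A, the copper pump that also carries platinum, lay at 8.06, 7.82 and 7.99 against 7.24, 7.54 and 7.75, a difference of 0.45 that was not called (adjusted p = 0.065 by limma) although the arrays did not overlap. It stood at -0.56 under cisplatin without TM and at -1.14 at 12 h on TM, and the difference was called both with against without TM (1.01) and between times (1.58). ATP7B was at -0.04, the importer SLC31A1 at 0.31 and the chaperone ATOX1 at -0.31, none called. The 2 that fell were COMMD1, a regulator of copper export of 248 kb, by 1.17 and CUTC by 0.59. Of 17 metallothioneins and zinc genes MT1E fell by 1.22, with levels of 8.57, 8.31 and 8.19 against 9.82, 9.44 and 9.47. MT2A (-0.26) and MT1X (-0.27) were not called. Metallothioneins are near-identical in sequence, and a probe set may not tell them apart.

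Inflammatory and immediate early genes were called in both directions, where 3.53% of all genes were higher and 2.75% lower. Of 42 targets of NF-kB, chemokines and cytokines 4 rose (CXCL8, IL1A by 0.93, CD83 by 0.84 and NFKBIA, the inhibitor of NF-kB, by 0.66) and CCL2, which attracts monocytes, fell by 0.92. Cisplatin without TM raised 14, where 11.5% of all genes were higher. Over all genes, the difference with against without TM was called above zero in 5.08% and below in 11.4%. In this list it was above in 1 member and below in 9. These counts were 2 and 7 after median centring, and 0 and 5 after quantile normalization. Of 38 immediate early genes and MAPK phosphatases 4 rose, with NR4A2 (1.11) and EGR1 (0.69) among them, and DUSP4 fell by 0.61 and SPRY2, an inhibitor of growth factor signalling, by 0.70 besides MYC. ID2, an inhibitor of differentiation factors, rose by 1.11, with levels of 6.21, 6.36 and 6.35 against 4.62, 5.05 and 5.92. Its 12 h difference was 4.12. ID1 fell by 0.73, INHBA by 0.64 and TGFB2 by 1.14 among the 28 genes of the epithelial-mesenchymal list. IL6ST, the shared receptor of the IL6 family, rose by 0.73, alone among 24.

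Smaller repair and death lists held 1 to 4 calls each, beside shares of 3.53% higher and 2.75% lower over all genes. NEIL3 (1.03) and APLF (0.83) rose among 25 base excision and mismatch repair genes, PRIMPOL (0.85) and UBE2A (0.59) among 12 of translesion synthesis, and CUL4A fell by 0.67 among 23 of nucleotide excision repair. The cohesin acetyltransferase ESCO2 rose by 0.81 and STAG1 fell by 0.77 among 14. FAS and CASP6 (0.59) rose, and BIRC6 fell by 0.59 and TNFRSF21 by 0.61, among 29 caspase and death receptor genes, neither fall being called after median centring. CDKN1A and CDKN3 (0.74) rose among 10 CDK inhibitors and GADD45 genes. Of the 45 genes of the RNAi library of the study, chosen by the authors as candidates for cisplatin resistance, TNFRSF21 and DUSP4 fell and 0 rose, a share of 4.44% beside 2.75% of all genes. After median centring 0 of the 45 fell and 1 rose.

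Other lists held long or secreted members. Their counts stand beside shares of 3.53% higher and 2.75% lower over all genes. Of 51 axon guidance genes 9 fell and 0 rose, SEMA3A by 1.38 and SRGAP1 by 1.37 the most, and these span 537 kb and 318 kb. The drug exporters ABCC1 and ABCC4, of 194 kb and 282 kb, fell by 0.98 and 0.84, while ABCA5 rose by 1.31 and ABCG2 by 0.69. In the VEGF and angiogenesis list EDN1 (endothelin-1) fell by 1.46, ADAMTS1 by 0.93 and VEGFC by 0.59, among 29 measured. TNC, an extracellular matrix protein gene, fell by 0.97. Of 17 stem cell markers ABCG2 and CD24 were called higher, CD24 at 3.14, 3.63 and 3.51 against 2.54, 2.55 and 2.58, levels as low as those of markers of absent cell types. MOXD1 rose by 0.71 among 16 copper enzymes. ITGB8 rose by 0.74 and COL13A1 fell by 0.70 among 34 integrins, laminins and collagens. In lipid synthesis ACACA, acetyl-CoA carboxylase, fell by 1.07 and HMGCS1 rose by 0.59 among 26, and of 36 chaperones TRAP1 fell by 0.87, HSPE1 by 0.61 and HSPA13 rose by 0.65. Of the 22 histone genes none was called, and of 42 proteasome genes PSMD10 alone was, higher by 0.73. Of 69 genes of oxidative phosphorylation 2 rose, and 0 without TM 24 h A.

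Set against cisplatin without TM, the calls were partly shared. Of the 506 genes that fell, 229 (45.3%) were also lower in Cis 24 h than in Control, which is 25.4% of the 903 lower there, and 50 were higher in Cis 24 h. Of the 650 that rose, 219 (33.7%) were among the 2115 higher there, which is 10.4% of those. At 12 h on TM, 324 of the 506 (64.0%) were lower and 278 of the 650 (42.8%) were higher. These are 25.2% of the 1286 lower and 22.8% of the 1218 higher at 12 h. TCP11L2 had the largest such difference, 3.10. It rose by 1.51 on TM and stood at -1.58 without TM. ANKFN1, a gene of 471 kb, rose by 1.27 on TM and stood at -1.47 without. TWNK, the mitochondrial DNA helicase, fell by 1.12 on TM and stood at 1.55 without.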

How the data were processed

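RNA of MDA-MB-231 cells (treated in triplicate in 6-well plates) was measured on the Human Gene 1.0 ST array of Affymetrix. The deposited values are log2 levels that the authors obtained with RMA, and no further scaling was applied. The authors' methods name an RNeasy kit for RNA and the labels name Trizol. Of 33297 transcript clusters, 19460 had a single gene symbol in the platform annotation, 1754 had several and 12083 were not listed. The cluster with the highest mean over the 20 arrays was kept for each of 18417 genes, and 18389 matched a RefSeq gene (GRCh38.p14). Differences between dim probe sets are understated by RMA, and no detection value comes with the table.

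A linear model with 7 groups was fitted to 20 arrays with limma 3.58.1 in R 4.3.3 (13 residual degrees of freedom, 6.09 prior), and p-values were adjusted by Benjamini-Hochberg over all genes. On simulated data shaped like this comparison (18417 genes), 97 of 100 genes changed by 2-fold and 100 of 100 changed by 3-fold were called, with 4 false calls. Replicate letters were treated as names only, since residuals of arrays with the same letter correlated at -0.18, -0.08 and -0.06. Array numbers in the labels follow the groups, so array order and group cannot be told apart.

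Naming followed a rule: the 15 largest called rises and 15 falls with no overlap between arrays, up to 5 called members of each list by p, the first 4 members of each list, and the 5 largest differences between conditions in each direction. Others were named after their values were seen. The comparison, the 40 gene lists and the span classes were chosen with earlier results of these data known. Alternatives covered the arrays fitted, variance trend, array weights, scaling, low genes, clusters, thresholds, the block and each array left out.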

Additional observations from a re-analysis of the deposited data

Results flagged for a closer look

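The cisplatin difference was itself compared between conditions with limma, for the largest rises and falls and the genes with the largest differences between conditions. Called differences are listed on the log2 scale. The same Cis/TM 24 h and TM 24 h arrays served the choice of genes and the comparison. The values are therefore no independent support for the choice, and their size may be overstated. With TM minus without TM at 24 h, values above zero were found for TCP11L2 (3.10), ANKFN1 (2.75), C5 (2.36), KIAA1107 (2.17), CYP1B1 (2.04), SLFN5 (1.82), ZNF404 (1.77), KLHL4 (1.68), TXNIP (1.64), NIPSNAP3A (1.41), RNFT1 (1.24), SLC30A4 (1.15), MCOLN3 (1.14), CCNG2 (1.13), GBP2 (1.11), TENM1 (1.09), PTPRM (1.08), CEP19 (1.03), ACBD7 (0.94) and GPHN (0.85). Values below zero were found for TWNK (-2.67), RNVU1-15 (-2.51), CDCA5 (-2.46), TXN2 (-2.28), RNVU1-6 (-2.23), SNAI1 (-1.11), ID2 (-0.88), RGS2 (-0.83) and CA2 (-0.68). RNVU1-15 and RNVU1-6 are near-identical U1 variants, and a probe set may not tell the copies apart.

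For 24 h minus 12 h on TM, values above zero were found for KLHL4 (2.32), ANKFN1 (2.20), ARHGAP42 (2.18), DOCK10 (2.10), DIAPH3 (1.98), MCOLN3 (1.68), GBP2 (1.30), C5 (1.22), GPHN (1.09), CEP19 (1.07), RNVU1-6 (1.03), RNFT1 (1.0), NIPSNAP3A (0.94), ACBD7 (0.88) and KCNQ5 (0.85). Values below zero were found for ID2 (-3.01), TNFSF15 (-2.23), SNAI1 (-2.21), RGS2 (-2.20), RND1 (-2.09), TENM1 (-1.80), TWNK (-1.43), PTPRM (-1.36), GPC6 (-1.27) and TXNIP (-0.64).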

How the results depend on the processing

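Outside the removal of the fold minimum and of single arrays, the alternatives gave 576 to 783 genes higher and 419 to 557 lower in Cis/TM 24 h. Without a fold minimum there were 1339 higher and 1142 lower, and 1424 above zero in the difference with against without TM. Leaving out 1 array gave 479 to 748 higher, 427 to 574 lower and 152 to 184 lower genes over 300 kb. Counted in the longest 20% of the genes instead, 309 fell. For the difference with against without TM, leave-one-out gave 753 to 1117 above and 1813 to 2269 below zero, and 1799 were above with arrays centred on their medians. Below zero there were 1358 after quantile normalization and 1303 after removal of the trend with level. For 24 h against 12 h on TM, leave-one-out gave 593 to 1044 above and 410 to 788 below, and centring gave 466 below. The cause of these shifts was not tested. Centring raised the share of rises among the calls from 56.2% to 65.1%, and it was 45.5% without TM 24 h A. With the replicate block, 653 genes were higher and 505 lower. Of 157 called genes chosen by the rule for naming, 132 kept their call under all alternatives applied to them, and 0 of the 283 chosen were called in the opposite direction. The other 25 of the 157 lost their call under at least 1: ABCG2, ASF1B, BIRC6, CASP6, CDC25A, CUL4A, CUTC, DUSP4, EME1, HMGCS1, HSPE1, IFIT2, NDUFA2, PDK1, PFKM, PLK1, POLR3G, PRIM1, PRIMPOL, ROBO1, TNFRSF21, TPP1, UBE2A, UQCRB and VEGFC. Array number limits the precision.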
